A study of Mus musculus with 11 samples.

Results

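The genes described here are 43 genes of the mitotic machinery, chosen by symbol: cyclins and kinases that start mitosis, the spindle assembly checkpoint, the chromosomal passenger complex, kinetochore and spindle proteins, cytokinesis factors, condensin and Mki67. All 43 of 43 were among the 23284 genes of the count files, and all 43 passed the filter on low counts that left 15237 genes for testing. They were measured by poly(A) RNA sequencing in 11 mouse tumors labelled as small cell lung cancer, a carcinoma of neuroendocrine cells. The labels give 1 genotype for every tumor, Rb;p53,TRE-MYCN, LSL-RTTA. It joins Rb and p53 alleles to a MYCN transgene under a doxycycline-responsive promoter (TRE) and a transactivator (RTTA) that needs Cre recombinase to remove a stop cassette. Doxycycline therefore turns MYCN on in cells that have met Cre. MYCN ON tumors (n = 7) were on doxycycline, and MYCN OFF tumors (n = 4) had been without it for 7 days. No group on doxycycline without the transgene was analysed here, so MYCN and the drug cannot be told apart. The labels do not state the age of the mice, how Cre was given, the species of the transgene or whether each tumor came from a different mouse. The p-values below therefore measure the spread between these tumors.

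Mitosis begins when cyclin B bound to Cdk1 phosphorylates many proteins, after which condensin compacts the chromosomes and kinetochores attach them to spindle microtubules. The spindle assembly checkpoint holds Cdc20 and the anaphase-promoting complex in check until every kinetochore is attached, and separase then releases the sister chromatids. Transcripts of these proteins rise together in G2 and M phase under B-Myb, FoxM1 and the MuvB complex, so their level in a bulk sample follows the share of cells that are dividing. In bulk samples, fewer dividing cells and less RNA of these genes per cell cannot be told apart. Small cell lung carcinomas are among the most proliferative tumors known.

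The MYCN ON libraries held 10324089 to 13123838 counts over genes and the MYCN OFF libraries 8951733 to 12190957, and a member had between 48 and 20159 reads in a tumor. Levels are given as CPM, read counts scaled to the size of the library with TMM factors. Mycn, the gene of the switch, was at 36.5, 109 and 171 CPM (lowest, median, highest) in MYCN ON, against 14.5, 15.7, 12.97 and 5.63 CPM in MYCN OFF tumors 1 to 4, and no value overlapped (log2 fold change 3.06, SE 0.47, edgeR adjusted p = 0.00139). Whether reads of the transgene count toward this mouse gene is not given in the sources used here. Among 14 neuroendocrine markers the summed level was 3408 to 5022 CPM in MYCN ON and 2324 to 9758 CPM in MYCN OFF, with 1 called higher and 2 lower in MYCN ON, and none was at 0 in any tumor. Tumors also held lung tissue. The summed level of 12 lung epithelium markers was 7.97 to 3367 CPM in MYCN ON and 50.1 to 32673 CPM in MYCN OFF. Of these markers, 3 were called lower in MYCN ON, and Cldn18, Lamp3, Sftpb and Sftpd were at 0 in some tumor. By the mean of these markers the tumors fell into a low-lung set (5 MYCN ON tumors and MYCN OFF tumor 2) and a high-lung set (MYCN ON tumors 3 and 5 and MYCN OFF tumors 1, 3 and 4). MYCN OFF tumor 2 thus stood apart from the other 3 in its group, and results that rest on it are given with and without it.

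Every one of the 43 genes had a higher fitted level in MYCN ON than in MYCN OFF, but only 16 passed the test. On simulated counts, with 100 genes changed 2-fold and 100 changed 4-fold, this test found 11% and 56% of them. The data gave far more calls, 2437 higher and 2038 lower, and an adjusted p threshold is less strict where more genes differ. These shares therefore do not give the power of the fit on the data. A missing call is still no evidence of equal levels. Log2 fold changes ran from 0.24 to 1.74 with a median of 1.10, against a median of 0.0023 over all genes tested. The 16 genes called higher (edgeR quasi-likelihood test, adjusted p below 0.05) were 37.2% of the members, against 16.0% of all genes, and 0 members were called lower, against 13.4% of all genes. No member was lower at an unadjusted p below 0.05 either, and DESeq2 and limma voom also called 0 lower. In 7 members, 16.3%, every MYCN ON tumor lay above every MYCN OFF tumor, against 11.4% of all genes. That share is closer to the background than the share of calls is. In 0 members did every MYCN ON tumor lie below every MYCN OFF tumor, against 5.41% of all genes. With library totals as the only scaling, which moved the median of all genes by -0.31 on the log2 scale, 8 members were called, against 8.64% of all genes, and Cdc25b had a log2 fold change of -0.06. DESeq2 called 21 members, against 13.4% of all genes, and limma voom 31, against 16.5%.

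The 4 MYCN OFF tumors differed among themselves far more than the 7 MYCN ON tumors did. MYCN ON tumors had 7831, 12138, 9473, 9313, 6786, 6939 and 7846 CPM over the 43 genes in tumors 1 to 7, against 1715, 8475, 5071 and 1976 CPM in MYCN OFF tumors 1 to 4. Tumor 2 of MYCN OFF thus lay inside the MYCN ON range and tumors 1, 3 and 4 below it. Within a member, the highest MYCN ON tumor exceeded the lowest by 2.003-fold in the median (range 1.45 to 5.10), against 5.47-fold in the MYCN OFF tumors (range 2.27 to 9.79). The SD of log2 CPM was larger in MYCN OFF in 43 of 43 members, with medians of 0.38 in MYCN ON and 1.13 in MYCN OFF. Over all genes tested it was larger in MYCN OFF in 52.0%, with medians of 0.48 in MYCN ON and 0.50 in MYCN OFF.

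**Figure D1:**
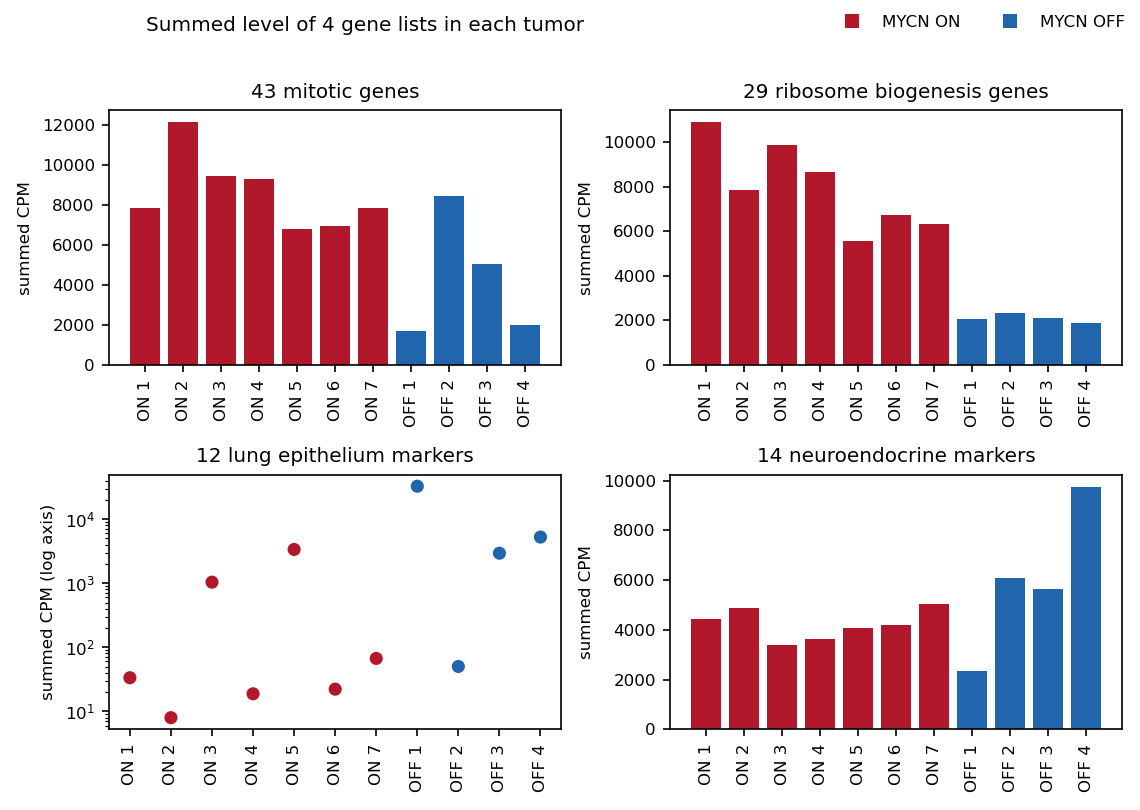
Summed CPM of the 43 mitotic genes, 29 ribosome biogenesis genes, 12 lung epithelium markers (log axis) and 14 neuroendocrine markers in each tumor, MYCN ON in red and MYCN OFF in blue. MYCN OFF tumor 2, at 8475 CPM of mitotic genes, lies within the MYCN ON range of 6786 to 12138 CPM, while its ribosome biogenesis sum of 2348 CPM lies below every MYCN ON tumor.

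Taken one by one, the MYCN OFF tumors kept an almost fixed order. Tumor 2 was the highest of the 4 in 42 of 43 members and tumor 3 the second in 42. The lowest was tumor 1 in 31 members and tumor 4 in 12. Set against the mean of the MYCN ON tumors, the median member differed by -2.54 on the log2 scale in tumor 1, -0.04 in tumor 2, -0.77 in tumor 3 and -2.25 in tumor 4. Tumors 1 and 4 lay below the MYCN ON range in all 43 members. In tumor 3, 33 members were below the range and 10 within it (Cdc25b, Pttg1, Aurkb, Incenp, Cdca8, Spc25, Kif11, Kif4, Smc4 and Ncapd2). In tumor 2, 33 members were within the range, 7 below it (Ccnb1, Ube2c, Bub1, Bub1b, Mad2l1, Kif2c and Smc2) and 3 above it (Cdc25b, Pttg1 and Racgap1). Such counts were not made over all genes tested. Some genes of any list fall outside a range of 7 tumors, so small counts such as those of tumor 2 lack a background. Among the MYCN ON tumors, tumor 2 had the highest level in 27 members, while the lowest level was in tumor 6 in 15 members and in tumor 5 in 13.

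**Figure D2:**
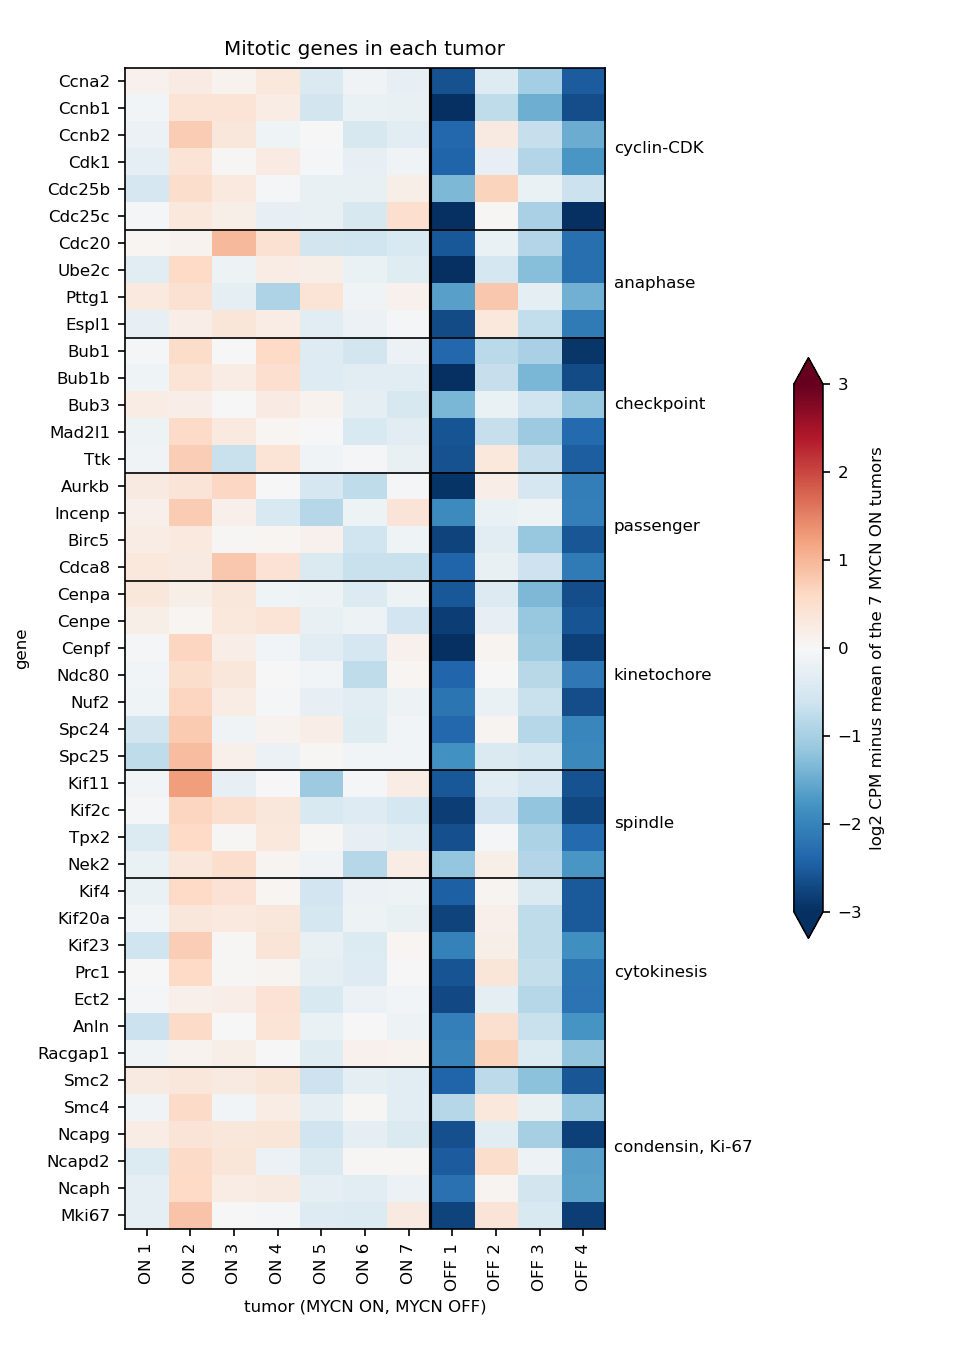
Log2 CPM of each member minus its mean over the 7 MYCN ON tumors, with MYCN ON tumors left and MYCN OFF tumors right of the thick line and genes grouped by role. MYCN OFF tumors 1 and 4 are low in all 43 rows, tumor 3 is moderately low (median -0.77) and tumor 2 has a median of -0.04.

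Markers of other tissue moved with this order in part. The lung epithelium sum was 33.5, 7.97, 1039, 18.8, 3367, 22.2 and 66.9 CPM in MYCN ON tumors 1 to 7, against 32673, 50.1, 2942 and 5253 CPM in MYCN OFF tumors 1 to 4. The sum of 13 immune markers was 143 to 670 CPM in MYCN ON, against 5411, 238, 1451 and 1587 CPM in MYCN OFF tumors 1 to 4. Of these 13 markers, 8 were called lower in MYCN ON, and Cd3g, Ms4a1 and Nkg7 were at 0 in some tumor. MYCN OFF tumor 4 had the highest neuroendocrine sum of the series, at 9758 CPM, beside a mitotic sum of 1976 CPM. MYCN ON tumor 5 had a higher lung sum than MYCN OFF tumor 3 (3367 and 2942 CPM) and also a higher mitotic sum (6786 and 5071 CPM). Muscle markers (8 tested, 0 called by edgeR) summed to 29.8 to 349 CPM in MYCN ON and 23.2 to 488 CPM in MYCN OFF, with the highest sum in MYCN OFF tumor 2 and with Myh6 and Tnnt3 at 0 in some tumor. Endothelial and stromal markers, of which 2 of 12 were called lower in MYCN ON, summed to 541 to 2158 CPM in MYCN ON and 773 to 3321 CPM in MYCN OFF. The part of other tissue in the mitotic differences was not tested beyond the fits that follow.

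Fits on fewer tumors or with tissue scores gave different counts of called members. Without MYCN OFF tumor 2, edgeR called 40 of 43 members higher (19.1% of all genes), with a median log2 fold change of 1.65, and only Cdc25b, Incenp and Ncapd2 missed the threshold. That tumor was the highest of its group in 42 of 43 members, so leaving it out was bound to widen their differences. Without MYCN OFF tumor 1, 6 members were called (12% of all genes), without tumor 4 also 6 (10.9% of all genes), and without tumor 3 there were 10 (11.6% of all genes). A count of 6 of 43 members is a share near the background of these fits. Leaving out a MYCN ON tumor gave 9 to 15 members (12.1% to 16.1% of all genes), with 9 without tumor 2 and 10 without tumor 3 or tumor 4. In the high-lung tumors alone (2 MYCN ON and 3 MYCN OFF), all 43 log2 fold changes were positive with a median of 1.65. In the low-lung tumors alone (5 MYCN ON and MYCN OFF tumor 2), 22 were positive and 21 negative with a median of 0.05. These are fold changes against 1 tumor, and the fit assumes that it varies as the MYCN ON tumors do. Neither fit called any of all genes tested, so neither gives a test of the members. Adjusted for a score of the lung markers, edgeR called 2 of 43 members, a share below the 7.4% of all genes called. They were Ccnb1 (log2 fold change 1.37, edgeR adjusted p = 0.0339) and Smc2 (1.19, edgeR adjusted p = 0.0396). With the immune score edgeR called 0 members, against 5.46% of all genes. At an unadjusted p below 0.05, a looser threshold than that of the 5.46%, 6 members were higher.

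Most of the members' promoters held sequence motifs that the choice of genes did not use. RefSeq promoter windows, 250 bases before to 50 after a start in GRCm38.p6, were listed for 35 of the 43 members, and the first window of each was read. Ccna2, Cdc25c, Aurkb, Incenp, Spc24, Tpx2, Kif20a and Smc4 had none. Letters were searched on both strands, each motif on its own whether or not it shared bases with another. The CCAAT box (CCAAT, the site of the factor NF-Y) was in 27 of 35 windows, 77.1%, against 37.9% of the first windows of 27025 genes. The cell cycle genes homology region, CHR, is the site of the MuvB subunit Lin54. Its letters TTTGAA were in 25 windows, 71.4%, against 18.1%. Both were in 22 windows, 62.9%, against 7.12%. The E-box CACGTG, the site of MYC and MAX, was in 3 windows (Espl1, Ttk and Anln), 8.57%, against 7.24%. Among the 15 called members with a window, 12 held a CCAAT box, 10 a CHR and 0 an E-box. Among the 20 members with a window that were not called, 15 held a CCAAT box, 15 a CHR and 3 an E-box. These are matches of letters, not measured binding. The windows of the 3 members with the smallest p, Smc2 (chr4:52438971-52439270, plus strand), Ccnb1 (chr13:100786437-100786736, minus strand) and Mad2l1 (chr6:66534971-66535270, plus strand), are printed with those of the 3 with the largest p, Racgap1 (chr15:99651607-99651906, minus strand), Pttg1 (chr11:43425932-43426231, minus strand) and Cdc25b (chr2:131186698-131186997, plus strand). Capitals mark CCAAT boxes and CHR letters on either strand, 5′ to 3′ along the gene.
Smc2: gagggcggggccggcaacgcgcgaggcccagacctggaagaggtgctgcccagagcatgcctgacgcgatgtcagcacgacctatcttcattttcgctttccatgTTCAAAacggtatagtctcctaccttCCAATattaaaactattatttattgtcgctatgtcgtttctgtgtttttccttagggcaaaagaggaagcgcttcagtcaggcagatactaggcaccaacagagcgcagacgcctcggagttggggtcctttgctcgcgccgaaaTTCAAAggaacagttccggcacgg
Ccnb1: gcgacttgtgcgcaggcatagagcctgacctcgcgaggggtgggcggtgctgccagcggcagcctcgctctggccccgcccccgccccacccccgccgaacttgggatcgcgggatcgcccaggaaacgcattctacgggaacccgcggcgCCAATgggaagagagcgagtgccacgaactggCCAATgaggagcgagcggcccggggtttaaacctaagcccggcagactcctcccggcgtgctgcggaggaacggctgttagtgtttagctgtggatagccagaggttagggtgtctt
Mad2l1: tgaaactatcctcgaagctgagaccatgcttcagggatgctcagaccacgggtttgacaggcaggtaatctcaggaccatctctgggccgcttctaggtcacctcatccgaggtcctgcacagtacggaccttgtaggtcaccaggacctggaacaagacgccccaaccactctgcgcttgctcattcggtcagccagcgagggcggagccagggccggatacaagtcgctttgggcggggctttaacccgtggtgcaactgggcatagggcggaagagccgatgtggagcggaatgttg
Racgap1: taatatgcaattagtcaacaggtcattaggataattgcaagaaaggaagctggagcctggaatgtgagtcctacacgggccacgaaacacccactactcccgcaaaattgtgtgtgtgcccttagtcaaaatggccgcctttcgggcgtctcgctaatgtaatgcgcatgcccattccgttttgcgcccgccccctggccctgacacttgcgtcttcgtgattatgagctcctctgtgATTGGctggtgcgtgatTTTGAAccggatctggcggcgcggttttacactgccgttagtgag
Pttg1: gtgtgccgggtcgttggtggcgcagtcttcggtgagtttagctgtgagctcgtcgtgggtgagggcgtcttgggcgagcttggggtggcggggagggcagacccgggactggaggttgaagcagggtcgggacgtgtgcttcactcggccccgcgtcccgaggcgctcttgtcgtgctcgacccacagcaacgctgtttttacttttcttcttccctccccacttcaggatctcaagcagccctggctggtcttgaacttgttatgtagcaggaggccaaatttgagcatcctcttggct
Cdc25b: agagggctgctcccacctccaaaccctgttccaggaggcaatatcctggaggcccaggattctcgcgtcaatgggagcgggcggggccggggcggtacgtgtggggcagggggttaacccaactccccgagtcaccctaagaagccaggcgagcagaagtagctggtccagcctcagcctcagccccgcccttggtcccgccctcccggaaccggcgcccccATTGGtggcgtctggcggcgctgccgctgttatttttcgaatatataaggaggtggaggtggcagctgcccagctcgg
Smc2 held 1 CCAAT box and 2 CHR matches, Ccnb1 held 2 CCAAT boxes and no TTTGAA, Racgap1 held 1 of each and Cdc25b held 1 CCAAT box. Only the exact letters were searched, so a CHR with other letters would be missed. None of the 6 held the E-box letters. Of the 35 windows, 5 held none of the 3 motifs: those of Mad2l1, Pttg1, Birc5, Nuf2 and Ncaph.

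Of the 6 cyclin, kinase and phosphatase genes that drive entry into mitosis, 3 were called higher in MYCN ON, against 16.0% of all genes. The role groups hold 4 to 7 genes each, so a single call moves such a share widely. Ccnb1, cyclin B1, was at 179, 244 and 345 CPM (lowest, median, highest) in MYCN ON, against 32.01, 152, 94.7 and 41.1 CPM in MYCN OFF tumors 1 to 4. The groups did not overlap (log2 fold change 1.74, SE 0.40, edgeR adjusted p = 0.0096). Ccna2, cyclin A2, which acts from S phase to early mitosis, was at 225, 324 and 376 CPM in MYCN ON, against 49.1, 231, 149 and 53.8 CPM in MYCN OFF tumors 1 to 4. Only MYCN OFF tumor 2 reached the MYCN ON range (log2 fold change 1.35, SE 0.40, edgeR adjusted p = 0.0255). Cdk1, the mitotic kinase, was at 183, 219 and 298 CPM in MYCN ON, against 42.7, 191, 122 and 67.4 CPM in MYCN OFF tumors 1 to 4, again with tumor 2 inside the range (log2 fold change 1.11, SE 0.35, edgeR adjusted p = 0.0316). Ccnb1 kept its call with each tumor left out. Ccna2 lost it without MYCN OFF tumor 1 or 4 (adjusted p up to 0.0641). Cdk1 kept it in 5 of 11 such fits, losing it without MYCN ON tumors 2, 3 or 4 or MYCN OFF tumors 1, 3 or 4 (adjusted p up to 0.0921). Cdc25b and Cdc25c are phosphatases that activate Cdk1, and with cyclin B2 (Ccnb2) they were not called. Cdc25b, chosen for its small difference, was at 98.3, 135 and 202 CPM in MYCN ON, against 54.4, 221, 121 and 89.6 CPM in MYCN OFF tumors 1 to 4. Its highest value was in MYCN OFF tumor 2 (log2 fold change 0.24, SE 0.33, edgeR adjusted p = 0.605).

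Among the 4 genes that carry out the exit from metaphase, 1 was called, against 16.0% of all genes called higher. Ube2c, the ubiquitin-conjugating enzyme of the anaphase-promoting complex, was at 184, 213 and 358 CPM in MYCN ON, against 27.5, 162, 97.2 and 49.2 CPM in MYCN OFF tumors 1 to 4. The groups did not overlap (log2 fold change 1.52, SE 0.41, edgeR adjusted p = 0.0189). This call was lost without MYCN OFF tumor 4 (adjusted p = 0.0576). Cdc20, the activator of the complex that the checkpoint restrains, was at 119, 188 and 354 CPM in MYCN ON, against 30.5, 157, 97.8 and 37.1 CPM in MYCN OFF tumors 1 to 4. Again tumor 2 of MYCN OFF was within the MYCN ON range, and the difference was not called (log2 fold change 1.26, SE 0.47, edgeR adjusted p = 0.0631). Espl1, separase, was at 69.9, 86.6 and 114 CPM in MYCN ON, against 13.7, 110, 53.1 and 20.1 CPM in MYCN OFF tumors 1 to 4, and was not called (log2 fold change 0.86, SE 0.46, edgeR adjusted p = 0.176). Pttg1, securin, which inhibits separase, was named after its values were seen. It was at 24.5, 50.8 and 63.7 CPM in MYCN ON, against 14.97, 81.8, 38.3 and 17.1 CPM in MYCN OFF tumors 1 to 4. In this gene Here too, MYCN OFF tumor 2 exceeded every MYCN ON tumor (log2 fold change 0.35, SE 0.44, edgeR adjusted p = 0.571). In the fit without MYCN OFF tumor 2, Cdc20 (1.82, adjusted p = 0.0139), Espl1 (1.64, adjusted p = 0.0095) and Pttg1 (1.05, adjusted p = 0.0462) were called. No other fit with a tumor left out called them (edgeR adjusted p up to 0.158, 0.373 and 0.902 in that order).

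The spindle assembly checkpoint had the largest share of calls of the 8 role groups, 4 of 5 genes, against 16.0% of all genes. Its median log2 fold change was 1.51. Mad2l1, which binds and inhibits Cdc20 at unattached kinetochores, was at 79.7, 108 and 162 CPM in MYCN ON, against 17.8, 67.1, 50.8 and 21.3 CPM in MYCN OFF tumors 1 to 4. The groups did not overlap (log2 fold change 1.51, SE 0.37, edgeR adjusted p = 0.0117). Bub1b, the BubR1 subunit of the mitotic checkpoint complex, was at 141, 167 and 261 CPM in MYCN ON, against 19.0, 113, 70.9 and 28.4 CPM in MYCN OFF tumors 1 to 4. Its groups were separate as well (log2 fold change 1.70, SE 0.44, edgeR adjusted p = 0.0154). Bub1, the kinase that recruits checkpoint proteins to kinetochores, was at 67.7, 95.9 and 152 CPM in MYCN ON, against 19.4, 57.3, 51.2 and 13.04 CPM in MYCN OFF tumors 1 to 4, also with no overlap (log2 fold change 1.56, SE 0.41, edgeR adjusted p = 0.0168). With each tumor left out, Mad2l1 and Bub1b kept their calls, and Bub1 lost it without MYCN OFF tumor 1 (adjusted p = 0.0503). Bub3, a partner of both Bub kinases, was the fourth called gene, and Ttk, the kinase Mps1, was not called. The summed level of the 5 genes in MYCN OFF tumor 2, 551 CPM, lay below the MYCN ON range of 566 to 967 CPM. In the other 7 role groups the sum in tumor 2 lay within the MYCN ON range. Whether the checkpoint group differs from the others was not tested.

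**Figure D3:**
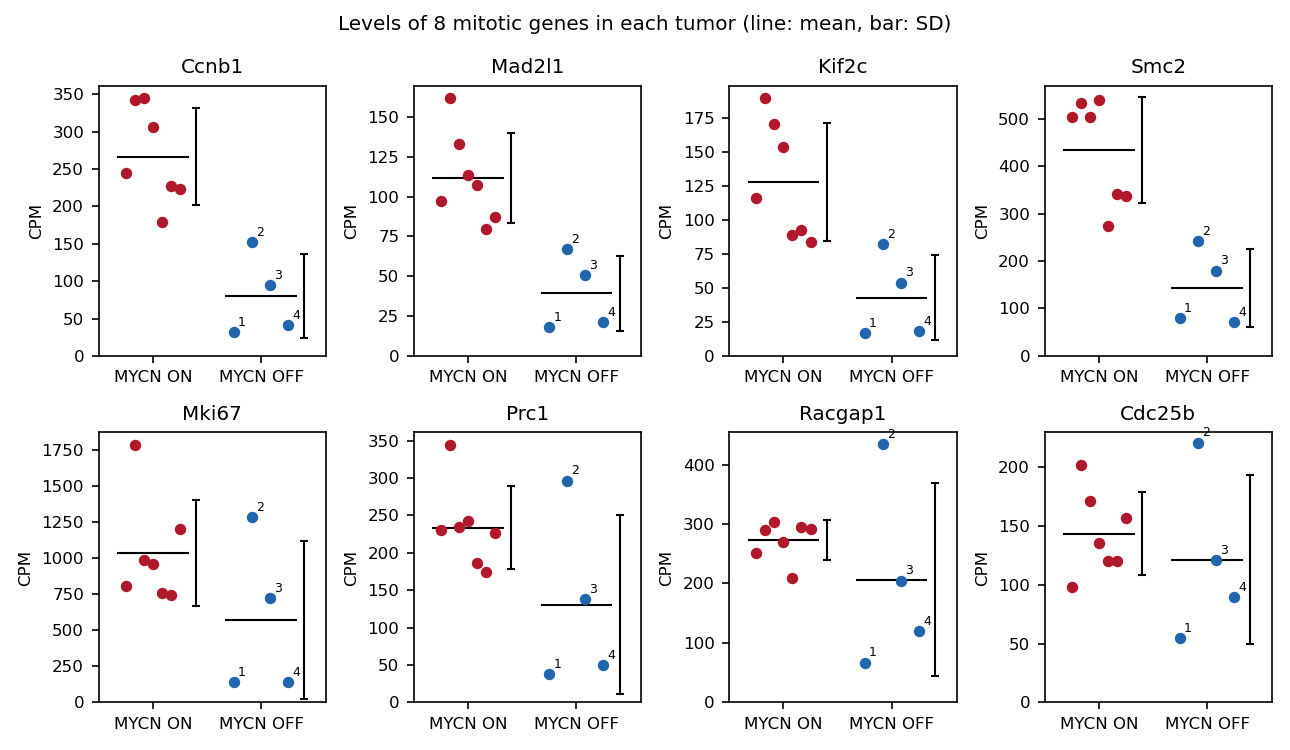
CPM of 8 members in each tumor, MYCN ON left and MYCN OFF right, with MYCN OFF tumors numbered, lines for the mean and bars for the SD. For Ccnb1, Mad2l1, Kif2c and Smc2 every MYCN OFF tumor lies below the MYCN ON tumors, while for Mki67 and Prc1 tumor 2 lies among them and for Racgap1 and Cdc25b above them.

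The chromosomal passenger complex, which corrects faulty kinetochore attachments and directs cytokinesis, had 1 of 4 genes called, against 16.0% of all genes. Birc5, survivin, was at 85.9, 135 and 159 CPM in MYCN ON, against 19.0, 104, 59.1 and 21.8 CPM in MYCN OFF tumors 1 to 4 (log2 fold change 1.38, SE 0.42, edgeR adjusted p = 0.0303). Its level in MYCN OFF tumor 2 overlapped the MYCN ON tumors, and the call held in 6 of 11 fits with a tumor left out, being lost without MYCN ON tumors 1 or 2 or MYCN OFF tumors 1, 3 or 4 (adjusted p up to 0.076). Cdca8, borealin, was at 79.8, 153 and 223 CPM in MYCN ON, against 24.01, 110, 83.2 and 29.5 CPM in MYCN OFF tumors 1 to 4 (log2 fold change 1.15, SE 0.45, edgeR adjusted p = 0.0737). Incenp, the scaffold of the complex, was at 60.0, 120 and 183 CPM in MYCN ON, against 28.7, 94.8, 97.7 and 26.0 CPM in MYCN OFF tumors 1 to 4 (log2 fold change 0.89, SE 0.42, edgeR adjusted p = 0.13). Tumors 2 and 3 of MYCN OFF were inside the MYCN ON range for both genes, and Incenp is the member in which MYCN OFF tumor 3, not tumor 2, was the highest of its group. The kinase of the complex, Aurkb, was not called. Cdca8 was called without MYCN OFF tumor 2 (1.5985, adjusted p = 0.0235) and Incenp was not (1.18, adjusted p = 0.0699). Neither was called with any other tumor left out (edgeR adjusted p up to 0.181 for Cdca8 and 0.301 for Incenp).

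Kinetochore and centromere genes had 3 of 7 called, against 16.0% of all genes, with log2 fold changes from 1.02 to 1.47. Cenpa, the histone H3 variant that marks centromeres, was at 97.9, 119 and 166 CPM in MYCN ON, against 22.2, 98.0, 51.5 and 20.6 CPM in MYCN OFF tumors 1 to 4. The level in MYCN OFF tumor 2 just exceeded the lowest MYCN ON tumor (log2 fold change 1.47, SE 0.40, edgeR adjusted p = 0.0189). Its call held with each tumor left out. Cenpe, a kinesin that moves chromosomes to the spindle equator, was at 157, 241 and 310 CPM in MYCN ON, against 32.7, 194, 105 and 38.6 CPM in MYCN OFF tumors 1 to 4 (log2 fold change 1.36, SE 0.44, edgeR adjusted p = 0.0385). Spc25, a subunit of the Ndc80 complex that binds microtubules, was at 52.2, 83.4 and 168 CPM in MYCN ON, against 24.97, 65.2, 61.1 and 23.2 CPM in MYCN OFF tumors 1 to 4 (log2 fold change 1.10, SE 0.37, edgeR adjusted p = 0.0428). Tumor 2 of MYCN OFF overlapped the MYCN ON tumors in both, and tumor 3 also in Spc25. Both calls held in 3 of 11 fits with a tumor left out. Cenpe lost its call without MYCN ON tumors 1, 2, 3, 4 or 6 or MYCN OFF tumors 1, 3 or 4 (adjusted p up to 0.096), and Spc25 without MYCN ON tumors 2 to 7 or MYCN OFF tumors 1 or 4 (adjusted p up to 0.121). The other subunits of the Ndc80 complex, Ndc80, Nuf2 and Spc24, and Cenpf were not called.

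Of 4 spindle genes, 1 was called, against 16.0% of all genes called higher. Kif2c, the microtubule depolymerase MCAK, was at 83.9, 116 and 190 CPM in MYCN ON, against 16.97, 82.1, 54.0 and 18.2 CPM in MYCN OFF tumors 1 to 4. The groups did not overlap, though MYCN OFF tumor 2 was close to the lowest MYCN ON tumor (log2 fold change 1.58, SE 0.45, edgeR adjusted p = 0.0233). Its call was lost without MYCN OFF tumor 1 or 4 (adjusted p up to 0.0609). Tpx2, which activates Aurora A on the spindle, was at 199, 268 and 398 CPM in MYCN ON, against 42.3, 256, 137 and 52.4 CPM in MYCN OFF tumors 1 to 4 (log2 fold change 1.15, SE 0.44, edgeR adjusted p = 0.0699). Kif11, the kinesin Eg5 that separates the spindle poles, was at 109, 221 and 556 CPM in MYCN ON, against 39.6, 184, 164 and 37.9 CPM in MYCN OFF tumors 1 to 4 (log2 fold change 1.28, SE 0.53, edgeR adjusted p = 0.0871). Kif11 had a 5.10-fold range within MYCN ON, the widest of the 43 genes, and MYCN OFF tumors 2 and 3 fell inside it. Nek2, a centrosome kinase, was not called. Both Tpx2 (1.82, adjusted p = 0.00645) and Kif11 (1.69, adjusted p = 0.0432) were called in the fit without MYCN OFF tumor 2. With any other tumor left out they were not called (edgeR adjusted p up to 0.169 for Tpx2 and 0.207 for Kif11).

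Genes of the central spindle and cytokinesis had 1 of 7 called, a share near the 16.0% of all genes called higher. Their median log2 fold change was 0.90. Ect2, the exchange factor that activates RhoA at the cleavage furrow, was at 129, 170 and 242 CPM in MYCN ON, against 27.0, 145, 97.9 and 38.3 CPM in MYCN OFF tumors 1 to 4 (log2 fold change 1.23, SE 0.40, edgeR adjusted p = 0.0387). Its call held in only 2 of 11 fits with a tumor left out, those without MYCN ON tumor 5 or MYCN OFF tumor 2 (adjusted p up to 0.103 in the others). Kif23, a centralspindlin kinesin, was at 87.2, 134 and 220 CPM in MYCN ON, against 32.1, 148, 76.8 and 36.6 CPM in MYCN OFF tumors 1 to 4 (log2 fold change 0.90, SE 0.41, edgeR adjusted p = 0.117). Kif20a, a kinesin of the midzone, was at 78.3, 107 and 144 CPM in MYCN ON, against 16.2, 125, 66.6 and 19.6 CPM in MYCN OFF tumors 1 to 4 (log2 fold change 1.02, SE 0.49, edgeR adjusted p = 0.13). In Kif23 and Kif20a, MYCN OFF tumor 2 lay above the median MYCN ON tumor. Racgap1, the partner of Kif23 in centralspindlin, was chosen for its small difference. It was at 210, 290 and 304 CPM in MYCN ON, against 67.1, 434, 205 and 120 CPM in MYCN OFF tumors 1 to 4. Here too, MYCN OFF tumor 2 exceeded every MYCN ON tumor (log2 fold change 0.40, SE 0.39, edgeR adjusted p = 0.453). Kif4, Prc1 and Anln were not called. Without MYCN OFF tumor 2, Kif23 (1.51, adjusted p = 0.0105), Kif20a (1.77, adjusted p = 0.0114) and Racgap1 (1.07, adjusted p = 0.0167) were called.

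Of the 5 condensin subunits, 2 were called higher in MYCN ON, against 16.0% of all genes. Mki67, the sixth gene of this group, was not called. Smc2, one of the ATPase cores of condensin, had the smallest p of the 43 genes. It was at 275, 504 and 541 CPM in MYCN ON, against 79.3, 243, 180 and 70.8 CPM in MYCN OFF tumors 1 to 4, with no overlap (log2 fold change 1.599, SE 0.36, edgeR adjusted p = 0.0084). Its call held with each tumor left out. Ncapg, a subunit of condensin I, was at 60.4, 107 and 119 CPM in MYCN ON, against 14.6, 71.6, 45.7 and 12.9 CPM in MYCN OFF tumors 1 to 4 (log2 fold change 1.38, SE 0.45, edgeR adjusted p = 0.0394). It lost its call without MYCN ON tumors 1, 2, 3 or 4 or MYCN OFF tumors 1, 3 or 4 (adjusted p up to 0.0999). Ncaph, the kleisin of condensin I, was at 87.6, 96.8 and 165 CPM in MYCN ON, against 22.9, 115, 74.5 and 36.0 CPM in MYCN OFF tumors 1 to 4 (log2 fold change 0.85, SE 0.38, edgeR adjusted p = 0.111). Smc4, the ATPase that pairs with Smc2, was named after its values were seen. It was at 418, 494 and 785 CPM in MYCN ON, against 289, 651, 451 and 240 CPM in MYCN OFF tumors 1 to 4. The groups overlapped (log2 fold change 0.40, SE 0.27, edgeR adjusted p = 0.287). Whether Smc2 and Smc4 differ from each other was not tested, and Ncapd2 was not called. Mki67, the coat protein of mitotic chromosomes used as the proliferation marker Ki-67, was also named after its values were seen. It was at 746, 957 and 1785 CPM in MYCN ON, against 143, 1285, 723 and 139 CPM in MYCN OFF tumors 1 to 4. The second highest value of the series was in MYCN OFF tumor 2, and the difference was not called (log2 fold change 0.85, SE 0.56, edgeR adjusted p = 0.268). Without MYCN OFF tumor 2, Ncaph (1.34, adjusted p = 0.0161), Smc4 (0.73, adjusted p = 0.0438) and Mki67 (1.64, adjusted p = 0.0369) were called. Leaving out any other tumor gave no call for them (edgeR adjusted p up to 0.2645, 0.597 and 0.498 in that order).

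**Figure D4:**
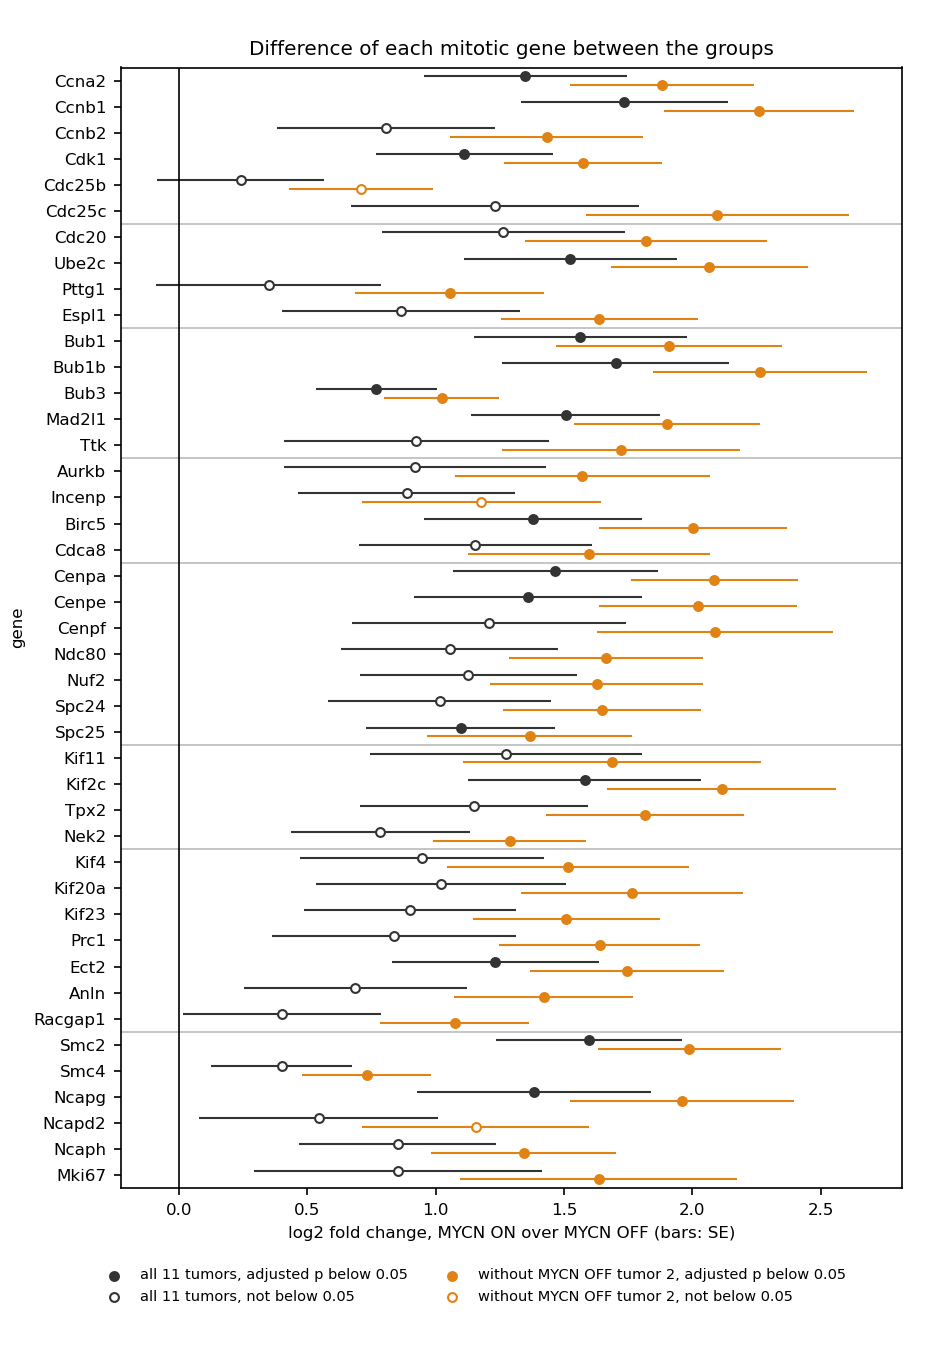
Log2 fold change of each member, MYCN ON over MYCN OFF, with SE, from the fit on all 11 tumors (black) and without MYCN OFF tumor 2 (orange), with filled points for an edgeR adjusted p below 0.05. All 43 values are above 0 in both fits, and 16 points are filled in black and 40 in orange.

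Called members tended to be lower than uncalled ones in MYCN OFF tumor 2, with overlap. Against the MYCN ON mean, that tumor differed by a median of -0.43 on the log2 scale in the 16 called members (range -0.80 to -0.20). In the 27 members not called, the median difference was 0.18 (range -0.33 to 0.82), and 21 of them were above the MYCN ON mean. This difference is part of the contrast that gave the calls and is a description of them. Per kilobase of exon, with lengths from GENCODE M21, Cdc20, Smc4 and Mki67 had the highest levels in MYCN ON, with means of 104, 103 and 103 CPM per kb, against 43.1, 78.2 and 56.9 CPM per kb in MYCN OFF. Cdc25c had the lowest, 8.75 CPM per kb in MYCN ON and 3.73 CPM per kb in MYCN OFF. The length of a gene here joins all its annotated exons, which can exceed the length of the RNA expressed. The annotation behind the counts is not given. The order of genes per kilobase depends on these lengths and could differ with others.

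Other genes of mitosis, 98 in a list that holds none of the 43, gave 45 called higher and 1 lower in MYCN ON, against 16.0% and 13.4% of all genes, with a median log2 fold change of 0.85. The count higher was 19 without MYCN OFF tumor 1 (12% of all genes) and 74 without tumor 2 (19.1%). Without tumor 3 it was 29 (11.6% of all genes) and without tumor 4 it was 18 (10.9%). In the fit adjusted for the lung score it was 11 (7.4% of all genes). In 22 of the 98 genes, 22.4%, every MYCN ON tumor lay above every MYCN OFF tumor, against 11.4% of all genes. Trip13, the ATPase that remodels Mad2, was at 34.0, 49.3 and 59.1 CPM in MYCN ON, against 4.88, 18.9, 11.01 and 6.004 CPM in MYCN OFF tumors 1 to 4. No value overlapped (log2 fold change 2.15, SE 0.37, edgeR adjusted p = 0.0021). Cenph, an inner kinetochore protein, was at 31.1, 44.8 and 54.0 CPM in MYCN ON, against 6.80, 16.2, 15.7 and 10.3 CPM in MYCN OFF tumors 1 to 4 (log2 fold change 1.79, SE 0.27, edgeR adjusted p = 0.0014). Cdca2, a protein phosphatase 1 targeting subunit, was at 64.2, 77.2 and 104 CPM in MYCN ON, against 11.2, 35.4, 24.9 and 12.3 CPM in MYCN OFF tumors 1 to 4 (log2 fold change 1.92, SE 0.32, edgeR adjusted p = 0.00178). In these 3 genes MYCN OFF tumor 2 was again the highest of its group but stayed below the MYCN ON tumors. The next smallest p-values belonged to Ska3, listed under an older symbol, with a log2 fold change of 1.73, the cohesin release factor Wapal (1.42), the centromere factor Oip5 (1.76), Bora, also under an older symbol (1.69), and the centromere protein Cenpp (1.58). Each had an edgeR adjusted p of at most 0.00604 with no overlap of the groups. All 8 kept their calls with each tumor left out and in the fit adjusted for the lung score. Anapc11, the RING subunit of the anaphase-promoting complex, was the gene called lower, at 30.0, 42.2 and 54.0 CPM in MYCN ON, against 48.9, 83.0, 67.8 and 74.0 CPM in MYCN OFF tumors 1 to 4 (log2 fold change -0.70, SE 0.19, edgeR adjusted p = 0.0202). Its call was lost without MYCN OFF tumor 4 (adjusted p = 0.0584).

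Among 20 transcription regulators of mitotic and cell cycle genes, 6 were called higher and 1 lower in MYCN ON. The share higher was 30%, against 16.0% of all genes, and 13.4% of all genes were lower. The regulators had a median log2 fold change of 0.29. The count higher was 2 without MYCN OFF tumor 1 (12% of all genes) or tumor 4 (10.9%). It was 3 without MYCN ON tumor 2 (13.7% of all genes), tumor 3 (13.2%) or tumor 4 (14.5%). In the fit adjusted for the lung score it was 1 (7.4% of all genes). The regulators' shares in these fits are near or below the background. E2f3, an activator of cell cycle genes, was at 67.1, 85.0 and 99.1 CPM in MYCN ON, against 15.6, 33.6, 26.3 and 19.2 CPM in MYCN OFF tumors 1 to 4. The groups did not overlap (log2 fold change 1.82, SE 0.23, edgeR adjusted p = 6.08e-04). Rbbp4, a histone-binding subunit of MuvB, was higher with no overlap (log2 fold change 0.93, SE 0.21, edgeR adjusted p = 0.0084). Lin9, a core MuvB subunit, was at 57.4, 118 and 140 CPM in MYCN ON, against 26.9, 80.3, 51.4 and 32.7 CPM in MYCN OFF tumors 1 to 4 (log2 fold change 1.19, SE 0.32, edgeR adjusted p = 0.0194). It lost its call without MYCN OFF tumor 1 or 4 (adjusted p up to 0.06). Mybl2, B-Myb, was at 48.4, 64.3 and 109 CPM in MYCN ON, against 15.9, 55.9, 41.0 and 16.1 CPM in MYCN OFF tumors 1 to 4. It was called (log2 fold change 1.18, SE 0.37, edgeR adjusted p = 0.0336) in 6 of 11 fits with a tumor left out, and not without MYCN ON tumors 2, 3 or 4 or MYCN OFF tumors 1 or 4 (adjusted p up to 0.0899). Foxm1 was at 100.2, 124 and 204 CPM in MYCN ON, against 25.3, 199, 99.9 and 26.0 CPM in MYCN OFF tumors 1 to 4, and was not called (log2 fold change 0.56, SE 0.50, edgeR adjusted p = 0.419). MYCN OFF tumor 2 was among the MYCN ON values in Foxm1 and Mybl2, as in most members. Without that tumor Foxm1 was called (1.36, adjusted p = 0.0339), and with any other tumor left out it was not (edgeR adjusted p up to 0.725). Rbl2, the pocket protein p130 of the repressive DREAM complex, was lower in MYCN ON, at 20.8, 33.5 and 41.0 CPM, against 61.6, 58.4, 55.9 and 39.5 CPM in MYCN OFF tumors 1 to 4 (log2 fold change -0.79, SE 0.20, edgeR adjusted p = 0.013). Tumor 4, not tumor 2, was the MYCN OFF tumor that reached the MYCN ON range of Rbl2.

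MYCN OFF tumor 2 lay near the MYCN ON mean in mitotic and replication genes and well below it in ribosome biogenesis genes, a contrast between lists that was not tested. Replication genes had 14 of 37 called higher, 37.8%, against 16.0% of all genes, and a median log2 fold change of 0.79. The count was 8 without MYCN OFF tumor 1 (12% of all genes) and 25 without tumor 2 (19.1%). It was 9 without MYCN OFF tumor 4 (10.9% of all genes) or MYCN ON tumor 3 (13.2%). In the fit adjusted for the lung score it was 3 (7.4% of all genes), a share near that background. Against the MYCN ON mean, the median replication gene differed by -1.62, -0.21, -0.45 and -1.15 on the log2 scale in MYCN OFF tumors 1 to 4. Ribosome biogenesis genes, many of them known targets of MYC proteins, had 28 of 29 called higher, 96.6%, against 16.0% of all genes. They had a median log2 fold change of 1.45. Their median difference from the MYCN ON mean was -1.66, -1.25, -1.52 and -1.52 in MYCN OFF tumors 1 to 4. In MYCN OFF tumor 2, 26 of these 29 genes were below the MYCN ON range, against 7 of the 43 mitotic genes and 9 of the 37 replication genes. The share of all genes below that range in this tumor was not counted. Mycn in that tumor was 15.7 CPM, below the lowest MYCN ON tumor at 36.5 CPM.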

How the data were processed

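Poly(A) RNA of 11 tumors was sequenced. Per the submitters' processing notes, reads were handled with bcl2fastq 1.8.4, TopHat2 2.0.8b and HTSeq 0.6.1 on mouse build mm9; the annotation and strand setting are not given in the sources used here. Reads of overlapping or antisense genes therefore cannot be told apart. The authors deposited raw read counts per gene symbol, 1 tumor per file. Rows that name no gene were left out; reads of no gene were 14.8% to 21.5% of the records and multiply aligned reads, which count for no gene, 9.15% to 20.9%.

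The test was edgeR 4.0.16 in R 4.3.3 (filterByExpr, minimum count 10 and total 15; TMM factors; robust quasi-likelihood test with no covariate; Benjamini-Hochberg adjustment over 15237 genes). The SE was taken as the size of the log2 fold change over the root of its F statistic. Marker and position values use log2 CPM with a prior count of 2. On simulated counts the test recovered 11% of 100 genes changed 2-fold and 56% of 100 changed 4-fold, with 3 false calls among 70. The simulation held far fewer changed genes than the data had calls, so it does not give the power of the fit on the data. DESeq2 1.42.0 and limma 3.58.1 voom, other scalings and filters, covariates and left-out tumors were alternatives. Named members were the 3 with the smallest p in each role group, and from the other lists 8 and 4, any gene called lower, Foxm1, Mybl2 and Mycn; Cdc25b, Pttg1, Racgap1, Smc4 and Mki67 were named after their values were seen. Members and lists were chosen with earlier results of these data known. Promoter sequences are from RefSeq (GRCm38.p6), a build other than that of the counts, and serve for sequence only. Replicate libraries differed by more than sampling noise in every pair.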

Additional observations from a re-analysis of the deposited data

How the results depend on the processing

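All 43 members kept a positive log2 fold change with RLE and upper quartile factors, DESeq2, limma voom, no filter on low counts, a filter of 1 CPM in 4 tumors and each tumor left out, and none was called lower in any setting. Each member had at least 48 reads in every tumor. Whether depth or the spread between tumors limits the calls was not compared. Unless stated, the cause of a shift was not tested.

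Leaving out each tumor in turn gave 6 to 40 members called higher against 16 in the fit reported, 18 to 74 other mitotic genes higher against 45 and 0 to 2 lower against 1, 2 to 8 regulators higher against 6, 8 to 25 replication genes higher against 14, 26 to 29 ribosome biogenesis genes higher against 28, and 1674 to 2955 genes higher and 1015 to 2438 lower over all genes, against 2437 and 2038. With library totals as the only scaling, which moved the median of all genes by -0.31, 8 members, 18 other mitotic genes, 2 regulators and 8 replication genes were called higher, 2 other mitotic genes and 2 regulators lower, and 1317 genes higher and 3347 lower in all. On that scale the median member differed from the MYCN ON mean by -0.38 in MYCN OFF tumor 3 and -1.89 in tumor 4, and the log2 fold change of Cdc25b was -0.061. Upper quartile factors gave 3 regulators higher and 2 other mitotic genes lower, and RLE factors also 2 lower. DESeq2 called 2 other mitotic genes and 3231 genes lower, and limma voom called 31 members higher. At an adjusted p below 0.01, 2 members, 12 other mitotic genes, 2 regulators and 6 replication genes were higher, 0 other mitotic genes and 0 regulators lower, and 1187 genes higher and 516 lower in all.

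With the lung score in the model, 2 members, 11 other mitotic genes, 1 regulator and 3 replication genes were called higher, 0 regulators lower, and 1128 genes higher and 509 lower in all, and Cdc25b had a log2 fold change of -0.056. With the immune score, 0 members (6 at an unadjusted p below 0.05), 4 other mitotic genes, 1 regulator, 0 replication genes and 18 ribosome biogenesis genes were higher, 0 regulators lower, and 832 genes higher and 453 lower in all. Under it 4 members were negative, of which the named ones were Cdc25b (-0.27), Racgap1 (-0.24) and Pttg1 (-0.35), and Foxm1 was at -0.18. A score of the other mitotic genes, which by construction takes up what the members share with them, left 0 members (2 higher and 5 lower at an unadjusted p below 0.05), 3 other mitotic genes, 1 regulator, 0 replication genes and 15 ribosome biogenesis genes higher, 4 other mitotic genes, 3 regulators and 1 replication gene lower, and 559 genes higher and 249 lower in all. Under it 26 of 43 members were negative, of which the named ones were Espl1 (-0.34), Cdca8 (-0.0096), Incenp (-0.29), Tpx2 (-0.035), Kif11 (-0.25), Kif23 (-0.25), Kif20a (-0.28), Ncaph (-0.27), Mki67 (-0.66), Cdc25b (-0.66), Racgap1 (-0.59), Pttg1 (-0.63), Smc4 (-0.38), and Foxm1 was at -0.80. In the low-lung and in the high-lung tumors alone, with fewer samples, edgeR called 0 genes of any list and 0 of all genes, with 2288 genes at an unadjusted p below 0.05 in the low-lung and 3898 in the high-lung tumors. In the low-lung tumors 21 of 43 members were negative, of which the named ones were Espl1 (-0.34), Kif23 (-0.082), Kif20a (-0.11), Ncaph (-0.044), Mki67 (-0.25), Cdc25b (-0.66), Racgap1 (-0.66), Pttg1 (-0.80), Smc4 (-0.22), and Foxm1 was at -0.58. With 0 of all genes called, neither of these fits tests the members.

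Tumors share numbers 1 to 4 across the groups. Deviations from the group means correlated by -0.16, 0.46, -0.08 and 0.26 between tumors of the same number. Of these 8 tumors, 4 correlated best with their own number. Such mixed values cannot decide whether tumors of the same number are related, and the fit reported treats them as unpaired. With a replicate block on that number, 30 members were called higher, against 1872 of all genes (12.3%), with 0 other mitotic genes and 1152 of all genes lower. MYCN ON tumors 5, 6 and 7 have no partner in this fit, so its contrast rests on tumors 1 to 4 of each group. The lowest MYCN ON level was in tumor 6 in 15 members and in tumor 5 in 13. The fit thus changes more than the pairing, and the larger count does not measure pairing alone.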
